A study of Mus musculus with 10 samples.

Results

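The respiratory chain subunits that mouse mitochondria encode in their own genome were followed in inflamed colon tissue. Of the 13 protein genes of the mitochondrial chromosome, 10 are described here, taken by gene name from the annotated expression table: mt-Nd1, mt-Nd2, mt-Nd4, mt-Nd5 and mt-Nd6 of complex I, mt-Cytb of complex III, mt-Co1, mt-Co2 and mt-Co3 of complex IV, and mt-Atp6 of complex V. They are 10 of 37 genes of that chromosome in the table and 10 of 32132 genes with a count in at least 1 library. All 10 passed the filter on low counts, and the lowest count of any of them in a library was 20088, for mt-Nd6. Whole colon RNA came from adult wild-type C57BL/6 mice in 2 groups, 5 libraries with 4-HDHA and 5 libraries with PBS. Mice of both groups drank 3% dextran sulfate sodium (DSS), a polymer that injures the colon lining, for 7 days. On those days one group was injected into a vein with 4-HDHA, a hydroxylated form of the fatty acid DHA, at 200 ul per 20 g body weight of a solution whose strength is labelled 5 um, and the other with the same volume of the PBS it was dissolved in. No mice without DSS were included, and the labels do not state that each library is another animal. If some share one, the p-values measure only the spread between libraries.

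Mitochondria make ATP by passing electrons along complexes I to IV, which pump protons across the inner membrane, and by letting the protons return through complex V. A small circular genome encodes core subunits of complexes I, III, IV and V together with the ribosomal and transfer RNAs needed to make them, while the nucleus encodes complex II and all other subunits. Both strands of the circle are transcribed as long precursors that are cut into single RNAs, most of them freed by excision of the transfer RNAs between them. In the colon, the lining cells and the smooth muscle both rely on this system.

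The genes lie close together, and that layout bears on how their reads can be counted. On mm10, mt-Nd6 (chrMT:13552-14070) was the only one of the 10 on the minus strand, and its last 14 bases lie opposite the last 14 bases of mt-Nd5 (chrMT:11742-13565). On the plus strand, mt-Atp8 overlapped mt-Atp6 (chrMT:7927-8607) by 43 bases, mt-Atp6 overlapped mt-Co3 (chrMT:8607-9390) by 1 base and mt-Nd4l overlapped mt-Nd4 (chrMT:10167-11544) by 7 bases. The libraries mark the strand of the RNA, but whether the counting used it is not given in the sources used here, so reads of mt-Nd6 and of RNA from the opposite strand cannot be told apart. The 3′ ends of 4 of the genes are shown because they display this layout and the way mitochondrial messages end. They are written 5′ to 3′ on the strand of each gene, from GENCODE M21 transcripts on mm10, with the stop bases in capitals.
mt-Nd5, chrMT:13539-13565, plus strand: atcttatactcaattaatctcgagTAA
mt-Nd6, chrMT:13552-13578, minus strand: attattatcgagattactcgagatTAA
mt-Co3, chrMT:9366-9390, plus strand: gtctccatttattgatgaggatctT
mt-Cytb, chrMT:15264-15288, plus strand: gacaaaatactaaaattatatccaT

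The annotated gene of 7 of the 10 ended in a whole stop codon, as for mt-Nd5 and mt-Nd6. The other 3, mt-Nd4, mt-Cytb and mt-Co3, ended in a single T, and it is known that the added poly(A) tail completes such a stop codon. These libraries were made from RNA captured by its poly(A) tail, and in human cells the ND6 message is known to carry no stable tail. Levels below are therefore levels of captured RNA.

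Reads of 5 of the 10 genes could also be placed in the nucleus. A block on chromosome 1 (chr1:24611535-24616197, minus strand) holds annotated copies that matched mt-Co1, mt-Co2, mt-Co3, mt-Atp6 or mt-Nd4 at 99% identity or more over at least 150 bases. No copy of the other 5 genes was found at that limit, and 11 further nuclear copies of the 10 genes were more diverged. A stretch of mt-Co3 and a stretch of mt-Cytb show the contrast, each beside its copy and written on the strand of the gene, with bases that differ in the pair in capitals.
mt-Co3, chrMT:8907-8966, plus strand: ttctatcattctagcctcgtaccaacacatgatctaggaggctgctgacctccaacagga
Gm28437, chr1:24613612-24613671, minus strand: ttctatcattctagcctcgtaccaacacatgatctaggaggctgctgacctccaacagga
mt-Cytb, chrMT:14444-14503, plus strand: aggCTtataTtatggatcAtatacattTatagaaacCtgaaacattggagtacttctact
Gm11410, chr4:80004288-80004347, plus strand: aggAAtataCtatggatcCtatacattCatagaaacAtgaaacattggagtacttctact

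The mt-Co3 stretch and its copy Gm28437 differed at 0 of 60 bases, and the mt-Cytb stretch and Gm11410 at 6 of 60. The deposited counts followed that contrast. Over the 10 libraries, the count of Gm28437 was 0.985 to 1.00 times that of mt-Co3, while Gm11410, 92.9% identical to mt-Cytb over 1142 bases, had a count of 0 in every library. Gm28661 (100% identical over 681 bases) had 0.944 to 0.976 times the count of mt-Co2. Gm10925 (100% over 678 bases) had 1.04 to 1.07 times the count of mt-Atp6, slightly above the mitochondrial gene itself. Copies that match only part of a gene had lower counts. Gm28439, identical over 876 bases of the 1378 of mt-Nd4, had 0.324 to 0.382 times its count, and Gm29216, 99.8% identical over 483 bases of the 1545 of mt-Co1, had 0.0855 to 0.112 times its count. By contrast Gm13340, a full-length copy of mt-Co1 on chromosome 2 at 97.6% identity, had 0.00171 times its count or less. The highest ratio among the 11 diverged copies was 0.00608, for Gm13341 against mt-Co2. How reads that fit 2 places were counted is not given in the sources used here, so values of the 5 genes with a near-identical copy are uncertain. The 5 near-identical copies together took 1.69% ± 0.152 of all counts with 4-HDHA and 1.45% ± 0.218 with PBS (SD, n = 5 each).

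**Figure D1:**
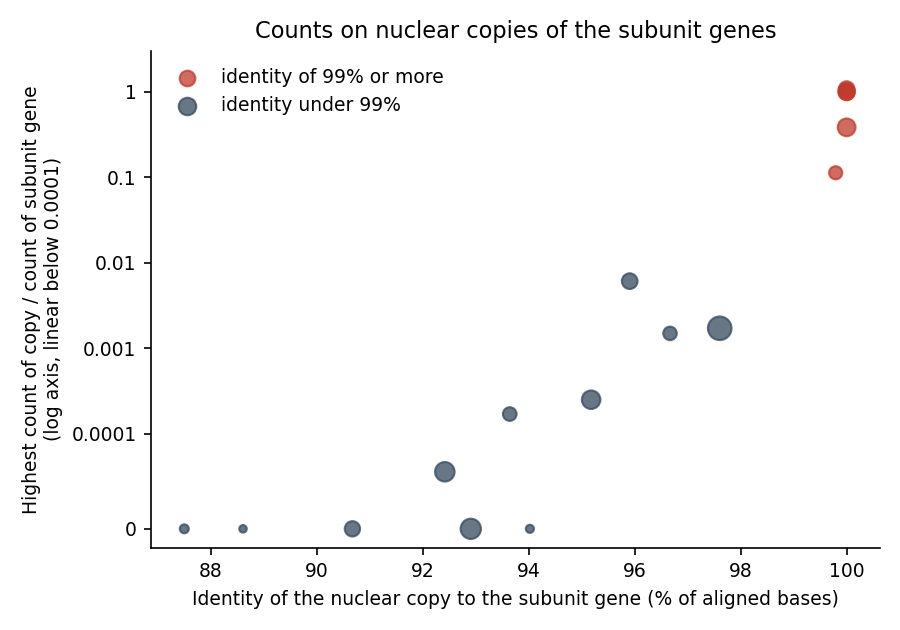
Highest ratio over the 10 libraries of the count of a nuclear copy to that of its mitochondrial gene (y, log axis that is linear below 0.0001) against the identity of the aligned bases in percent (x). Each of the 16 points is a copy, its area in proportion to the aligned bases; the 5 copies at 99% or more stand between 0.112 and 1.07, and the 11 others at 0.00608 or less.

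Counts per library summed to between 50915365 and 66470519. Markers of colon epithelium averaged 8.83 to 9.53 log2 CPM (CPM, counts divided by the library's total after TMM scaling) over the 10 libraries, so the labelled tissue was present in each. Several libraries stood apart in their tissue makeup. PBS replicate 3 had the lowest smooth muscle, skeletal muscle, squamous epithelium and adipocyte marker means of the 10 libraries and the highest neutrophil mean. 4-HDHA replicate 5 had a B cell and follicle marker mean of 5.88 log2 CPM, against 0.17 to 1.16 in the rest of its group, and the lowest smooth muscle mean of that group. 4-HDHA replicate 4 had the highest fibroblast and adipocyte marker means.

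Per length of gene, the 10 messages spanned a 13.0-fold range of levels and kept nearly the same order in all libraries. Levels between genes are compared in FPKM, the fragments of a gene divided by its length and by the fragments of the library, as deposited by the authors. mt-Co1, the catalytic subunit of cytochrome c oxidase, was highest at 12297 ± 1728 FPKM over the 10 libraries (SD). It was followed by mt-Atp6, the proton channel subunit of ATP synthase, at 5759 ± 866 FPKM and by mt-Co2, which takes electrons from cytochrome c, at 5530 ± 723 FPKM. mt-Atp6 lay above mt-Co2 in 8 of 10 libraries, so the order of these neighbours was not the same throughout. Cytochrome b, encoded by mt-Cytb, had 4386 ± 595 FPKM and mt-Co3, the third core subunit of complex IV, 4345 ± 599 FPKM. mt-Cytb lay above mt-Co3 in 5 of 10 libraries, and the levels of this pair did not differ beyond their spread. These values leave out the copy Gm28437, which held 0.985 to 1.00 times the count of mt-Co3. mt-Cytb had no near-identical copy, so which of the pair is higher is uncertain.

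The complex I messages were the 5 lowest. mt-Nd1, which lies where ubiquinone enters the complex, had 2926 ± 378 FPKM. The proton pumping subunits followed, with 1982 ± 335 FPKM for mt-Nd4, 1375 ± 236 FPKM for mt-Nd2 and 1153 ± 180 FPKM for mt-Nd5. mt-Nd6, a membrane subunit and the minus-strand message, was lowest at 948 ± 223 FPKM. From mt-Co3 down to mt-Nd6 each gene lay above the next in all 10 libraries. The smallest such steps were 1.01-fold, in 1 library between mt-Nd2 and mt-Nd5, and 1.03-fold, in 1 library between mt-Nd5 and mt-Nd6. mt-Co1 was 9.82-fold to 16.7-fold above mt-Nd6 within single libraries. Because mt-Co1, mt-Co2, mt-Co3, mt-Atp6 and mt-Nd4 share sequence with nuclear copies, their places in this order are uncertain. The copies of mt-Co2, mt-Co3 and mt-Atp6 held about as many counts as the genes themselves, and those of mt-Nd4 and mt-Co1 fewer.

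**Figure D2:**
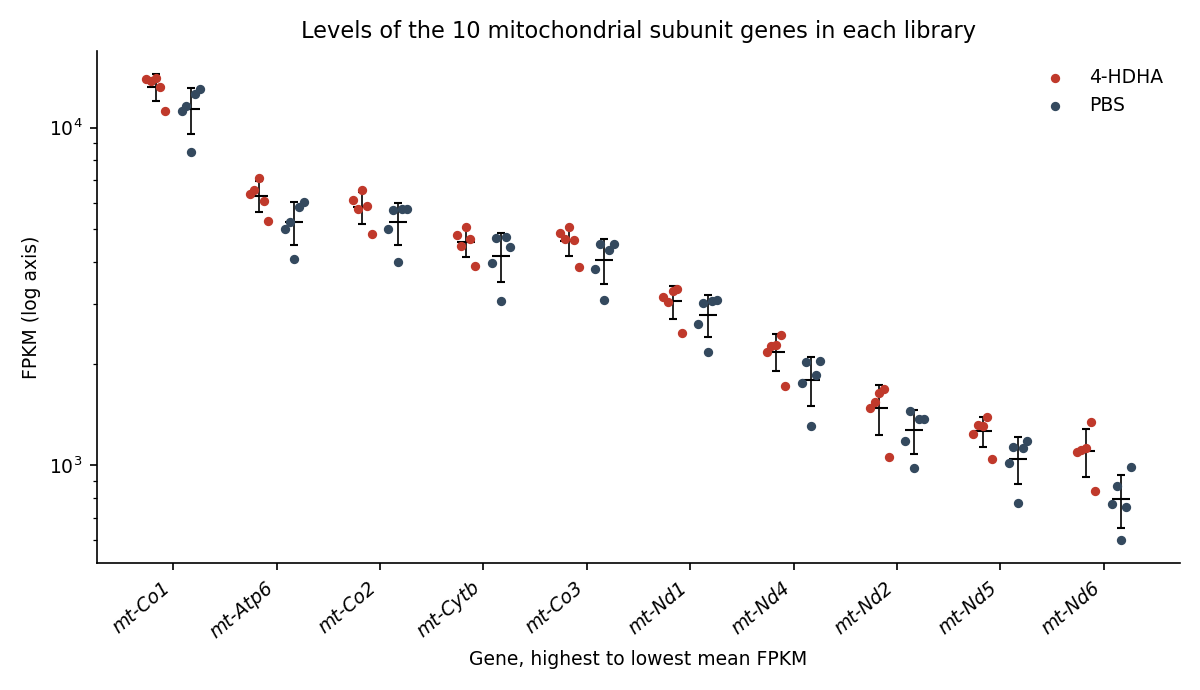
FPKM of each of the 10 genes (log axis) in the 5 4-HDHA libraries and the 5 PBS libraries, ordered by their mean over all libraries; bars are means ± SD. The groups overlap for every gene, and the lowest point of each gene is PBS replicate 3.

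No difference between the groups in the 10 messages passed the test against replicate error. In edgeR's quasi-likelihood test across 19615 genes, 0 of 10 passed a Benjamini-Hochberg adjusted p of 0.05 in either direction, and 0 of all genes tested passed (0% of genes higher, 0% lower). The DESeq2 Wald test also called 0 of 10, where it called 0.97% of genes higher and 0.516% lower. All 10 had a positive log2 fold change of 4-HDHA over PBS, as did 51% of all genes tested. At an unadjusted p under 0.05, 1 of 10 was higher with 4-HDHA and 0 of 10 lower, where 7.39% of all genes were higher and 7.45% lower. The groups did not separate completely for any of the 10, where 1.16% of all genes were higher and 1.63% lower without overlap. The median log2 fold change of the 10 was 0.21, beside 0.01 over all genes tested. These genes share precursor RNAs, and their log2 CPM correlated at 0.798 (mt-Nd6 and mt-Cytb) to 0.993 (mt-Nd4 and mt-Nd5, Pearson, a description over 10 libraries), so 10 positive values are not 10 separate observations. How far the groups overlapped depended on the scaling. In CPM, which here carries the TMM factors, 0 to 3 of 5 4-HDHA libraries lay above every PBS library, depending on the gene, and in FPKM 2 to 4 of 5 did. The TMM factor of PBS replicate 5, at 0.907, was the lowest of the 10 libraries. With library totals alone in edgeR the median log2 fold change of the 10 genes was 0.23. In bulk tissue, fewer cells of a type and less RNA per cell cannot be told apart.

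Within complex I, mt-Nd6 had the largest log2 fold change, though its difference in mean CPM was the smallest. Its level was 668, 660, 597, 770 and 510 CPM in 4-HDHA replicates 1 to 5, against 488, 473, 311, 431 and 630 CPM in PBS replicates 1 to 5. The 3 highest values were from 4-HDHA, but replicates 3 and 5 of that group lay below PBS replicate 5, so the groups overlapped. The log2 fold change was 0.46 (SE 0.19, 95% interval 0.05 to 0.87), with an edgeR p of 0.0312 before adjustment and 0.315 after it. mt-Nd4 had 3523, 3562, 3202, 3712 and 2774 CPM with 4-HDHA, against 2943, 2927, 1801, 2816 and 3458 CPM with PBS. mt-Nd5 had 2655, 2752, 2439, 2801 and 2244 CPM with 4-HDHA, against 2269, 2182, 1405, 2262 and 2644 CPM with PBS. For both genes 3 of 5 4-HDHA libraries lay above every PBS library, and PBS replicate 3 was far below the rest of its group. Their log2 fold changes were 0.27 (SE 0.18, edgeR adjusted p = 0.475) and 0.26 (SE 0.18, edgeR adjusted p = 0.465).

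The remaining complex I messages had smaller log2 fold changes. mt-Nd2 (chrMT:3914-4951) averaged 1718 ± 250 CPM with 4-HDHA and 1484 ± 278 CPM with PBS (SD, n = 5 each), and its log2 fold change was 0.21 (95% interval -0.17 to 0.60). mt-Nd1 (chrMT:2751-3707) had 3552, 3337, 3196, 3533 and 2775 CPM with 4-HDHA, against 3069, 3040, 2077, 3242 and 3646 CPM with PBS. In CPM, PBS replicate 5 was the highest of all 10 libraries for this gene. In FPKM, 3 of 5 4-HDHA libraries lay above every PBS library, with 3336 FPKM in 4-HDHA replicate 4 and 3092 FPKM in PBS replicate 5. Its log2 fold change of 0.12 (SE 0.17, edgeR adjusted p = 0.737) was the smallest of the 10, and its 95% interval of -0.25 to 0.50 holds differences of either sign.

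Cytochrome b is the only subunit of complex III made in mitochondria. Its gene mt-Cytb (chrMT:14145-15288) had 6491, 5841, 5918, 5943 and 5242 CPM with 4-HDHA, against 5538, 5686, 3498, 5971 and 6237 CPM with PBS. Of the PBS libraries 4 lay within the range of the 4-HDHA group and replicate 3 below it. The log2 fold change was 0.13 (SE 0.18, 95% interval -0.27 to 0.53, edgeR adjusted p = 0.737), and without PBS replicate 3 it was 0.0066.

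The messages of complex IV varied together, with correlations of their log2 CPM from 0.974 to 0.992 over the 10 libraries. Without PBS replicate 3 these ran from 0.883 to 0.959. Pairs across complexes were as close, such as mt-Cytb and mt-Co2 at 0.987 over the 10 libraries. mt-Co1 (chrMT:5328-6872) had 25304, 24346, 22162, 22519 and 20297 CPM with 4-HDHA, against 21212, 18794, 13083, 21395 and 24788 CPM with PBS. Its highest value was from 4-HDHA replicate 1, but PBS replicate 5 lay above the other 4 libraries with 4-HDHA. In FPKM, 4 of 5 4-HDHA libraries lay above every PBS library for this gene. The log2 fold change was 0.21 (SE 0.20, 95% interval -0.24 to 0.65). mt-Co2 (chrMT:7013-7696) averaged 4459 ± 368 CPM with 4-HDHA and 4041 ± 784 CPM with PBS (SD, n = 5 each), with a log2 fold change of 0.14, and mt-Co3 averaged 4071 ± 341 CPM with 4-HDHA and 3587 ± 718 CPM with PBS, a log2 fold change of 0.18. With edgeR's adjusted p at 0.616, 0.694 and 0.609 for mt-Co1, mt-Co2 and mt-Co3, none of them passed.

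mt-Atp6 of complex V had 5098, 5098, 4925, 4582 and 4232 CPM with 4-HDHA, against 4165, 3775, 2786, 4364 and 5071 CPM with PBS. PBS replicate 5 lay just below the highest 4-HDHA libraries, while the other 4 PBS libraries lay below 4 of the 5 4-HDHA libraries. The log2 fold change was 0.25 (SE 0.18, 95% interval -0.14 to 0.64, edgeR adjusted p = 0.484).

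Much of the difference rested on 1 library. PBS replicate 3 was the lowest of the 10 libraries for all 10 genes, and the coefficient of variation of their CPM was 18.7% to 24.6% in the PBS group, beside 7.53% to 15.0% in the 4-HDHA group. Without PBS replicate 3 the median log2 fold change of the 10 genes was 0.10, that of mt-Nd6 was 0.34 and that of mt-Nd1 0.01. Correlations between the genes without it ran from 0.497 to 0.973. Without PBS replicate 5, the highest PBS library in CPM for all 10 genes, the median was 0.29 and mt-Nd6 had 0.59. Smooth muscle markers were also lowest in PBS replicate 3. Their mean log2 CPM was 9.39, 9.23, 8.84, 9.03 and 6.84 in 4-HDHA replicates 1 to 5, against 7.39, 8.63, 6.43, 7.62 and 8.56 in PBS replicates 1 to 5, and 9 of 9 smooth muscle markers had a positive fold change. Summed over the list, they reached 1433 to 8111 CPM with 4-HDHA and 1057 to 5079 CPM with PBS. With the marker mean for smooth muscle added to the edgeR model, the median log2 fold change of the 10 genes was 0.04 and 4 of 10 were negative, mt-Nd1, mt-Nd2, mt-Cytb and mt-Co2. In this mean 4 of 5 4-HDHA libraries lay above every PBS library, so group and covariate overlap. The fit therefore cannot separate smooth muscle from treatment, and the part of smooth muscle in the result was not tested. With the colon epithelium mean as a covariate instead, all 10 were positive and the median was 0.18. Fibroblast (5 of 5), skeletal muscle (5 of 5) and adipocyte markers (3 of 3) also had positive fold changes. So did all markers of macrophages (4), T cells (4), B cells and follicles (4), endothelium (3), neurons and glia (4) and squamous epithelium (4). Colon epithelium had 5 of 9 positive, neutrophils 1 of 5 and plasma cells 1 of 3. Summed adipocyte markers reached 6.80 to 61.6 CPM with 4-HDHA and 0.155 to 2.95 CPM with PBS. The part of these other tissues and cell types in the result was not tested.

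**Figure D3:**
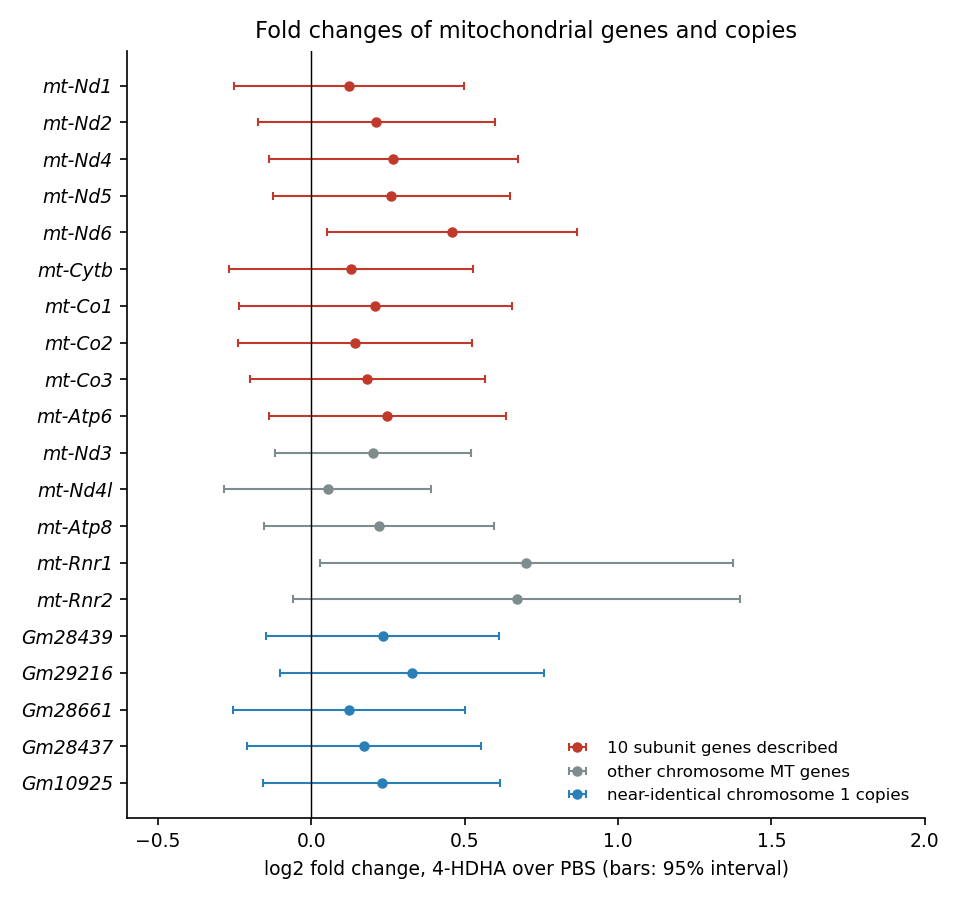
Log2 fold change of 4-HDHA over PBS with its 95% interval (x) for the 10 genes, for 5 other genes of the mitochondrial chromosome and for the 5 near-identical chromosome 1 copies, by edgeR. All 20 values are positive; the intervals of mt-Nd6 (0.05 to 0.87) and mt-Rnr1 (0.03 to 1.37) lie above 0 before adjustment, and the others span 0.

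As a share of all counts, the 10 genes took 5.63%, 5.47%, 5.79%, 5.44% and 4.53% in 4-HDHA replicates 1 to 5, against 4.52%, 4.91%, 3.45%, 5.08% and 5.21% in PBS replicates 1 to 5. The means were 5.37% ± 0.489 with 4-HDHA and 4.63% ± 0.709 with PBS (SD, n = 5 each). The difference of 0.740 percentage points was 0.445 points without PBS replicate 3. Of the 4-HDHA libraries 4 lay above every PBS library, and 4-HDHA replicate 5 lay within the PBS range.

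The makeup of that share by complex was close between the groups. Counts on the near-identical copies are left out of it. Gm10925 held 1.04 to 1.07 times the count of mt-Atp6 and mt-Cytb had no such copy, so the balance between complexes is uncertain. Complex IV messages made up 58.6% ± 0.923 of the counts on the 10 genes with 4-HDHA and 58.7% ± 0.701 with PBS. Complex I messages made up 21.5% ± 1.18 with 4-HDHA and 21.2% ± 0.541 with PBS, mt-Cytb 11.0% ± 0.332 with 4-HDHA and 11.5% ± 0.570 with PBS, and mt-Atp6 8.92% ± 0.344 with 4-HDHA and 8.63% ± 0.313 with PBS (SD, n = 5 each). The share of mt-Nd6 among these counts was 1.19% ± 0.132 with 4-HDHA and 0.995% ± 0.0859 with PBS (SD, n = 5 each). As a ratio of the group means this was the furthest from 1 of the 10 genes, while in percentage points several other genes differed more. For each 100 counts on the other 9 genes, mt-Nd6 had 1.15, 1.19, 1.14, 1.44 and 1.10 counts in 4-HDHA replicates 1 to 5, against 1.00, 1.03, 1.01, 0.867 and 1.11 counts in PBS replicates 1 to 5. This ratio was formed after the single genes had been seen and was not tested. Of the 4-HDHA libraries 4 lay above every PBS library, and 4-HDHA replicate 5 lay just below PBS replicate 5. PBS replicate 3, lowest in the level of every gene, was the median of its group in this ratio. The gene next to mt-Nd6, mt-Nd5, made up 4.80% ± 0.248 of the counts on the 10 genes with 4-HDHA and 4.59% ± 0.0840 with PBS.

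The other protein genes and the ribosomal RNA genes of the mitochondrial chromosome also had positive fold changes, and 0 of them passed adjustment. The 3 protein genes outside the 10 had log2 fold changes of 0.20 for mt-Nd3, 0.05 for mt-Nd4l and 0.22 for mt-Atp8. The ribosomal RNA genes mt-Rnr1 and mt-Rnr2, whose RNAs form the small and large mitochondrial ribosomal subunits, had log2 fold changes of 0.70 (SE 0.31) and 0.67 (SE 0.33). In edgeR's test mt-Rnr1 had a p of 0.0429 before and 0.328 after adjustment, and mt-Rnr2 an adjusted p of 0.357. For each 100 counts on the 10 genes there were 2.18, 2.91, 1.91, 3.66 and 1.70 ribosomal RNA counts with 4-HDHA, against 1.97, 1.45, 1.44, 1.46 and 2.37 counts with PBS. Only 4-HDHA replicates 2 and 4 lay above every PBS library. These libraries were selected for poly(A) RNA, so the ribosomal counts are what passed that selection.

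Transfer RNA genes were read at low levels, up to 90.3 CPM on average with 4-HDHA and 68.4 CPM with PBS for mt-Ts1. Of the 8 on the minus strand, the strand of mt-Nd6, all 8 were tested and had positive log2 fold changes with a median of 0.69. Of these, 6 were higher at an unadjusted p under 0.05 in edgeR, mt-Ta, mt-Tn, mt-Tc, mt-Ts1, mt-Te and mt-Tp, and 0 passed adjustment. Over all genes 7.39% were higher at that limit. Some were read at very low levels, such as mt-Tc at 2.56 CPM with 4-HDHA and 1.45 CPM with PBS. Genes of 1 strand share precursor RNAs, so these are not separate observations. Of the 14 on the plus strand, 9 were tested, 8 were positive and 0 were under an unadjusted 0.05, with a median of 0.34. For each 100 counts on the 10 genes, the minus-strand transfer RNA genes had 0.260 ± 0.0322 counts with 4-HDHA and 0.217 ± 0.0168 counts with PBS (SD, n = 5 each). The lowest 4-HDHA library had 0.233 and the highest PBS library 0.232, so the groups only just stood apart. This ratio was not tested. Its largest part came from mt-Ts1, followed by mt-Tp at 18.1 CPM on average with 4-HDHA. In the CPM of single genes, 1.16% of all genes were higher with 4-HDHA without overlap. The plus-strand transfer RNA genes had 0.0331 ± 0.00579 counts with 4-HDHA and 0.0353 ± 0.00466 with PBS for each 100 counts on the 10 genes. As for mt-Nd6, reads of plus-strand precursors across these places cannot be told apart from their own.

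**Figure D4:**
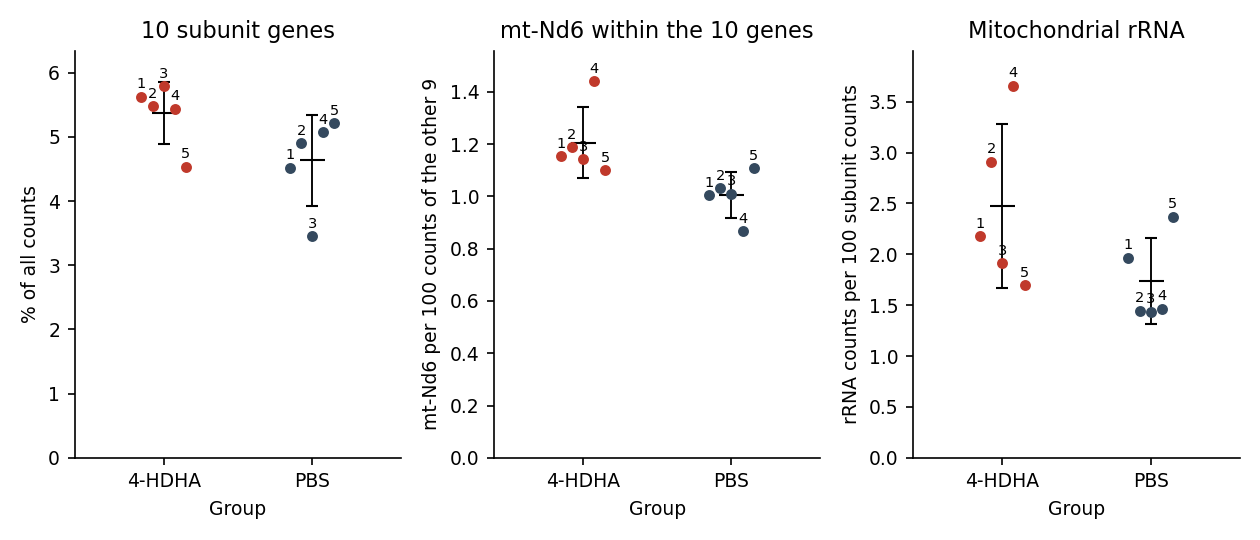
The 10 genes as a percentage of all counts, mt-Nd6 counts per 100 counts of the other 9 genes, and ribosomal RNA counts (mt-Rnr1 and mt-Rnr2) per 100 counts of the 10 genes, in each library with its replicate number; bars are means ± SD. In the first and second panels 4 of 5 4-HDHA libraries lie above every PBS library, and in the third 2 of 5 do.

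Most nuclear genes for subunits of these complexes had a fold change of the opposite sign to the mitochondrial ones. Matched by symbol, 77 nuclear subunit genes were tested, 12 with a positive and 65 with a negative log2 fold change and a median of -0.14. By edgeR 14 were lower and 0 higher at an unadjusted p under 0.05, and 0 passed adjustment. Over all genes 7.45% were lower and 7.39% higher at that limit. The mean log2 CPM of the nuclear subunit genes was lowest in 4-HDHA replicate 4 (6.23) and highest in PBS replicate 4 (6.80). Genes that vary together are not separate observations. Ndufb1 of complex I, named Ndufb1-ps in the table, is not among the 77 and had a log2 fold change of 0.08. The medians were -0.15 for complex I (36 genes), -0.20 for complex II (4 genes), -0.25 for complex III (9 genes), -0.06 for complex IV (11 genes) and -0.13 for complex V (17 genes). In complex I, Ndufs4, an accessory subunit needed for a stable complex, averaged 50.4 ± 3.52 CPM with 4-HDHA and 60.5 ± 4.14 CPM with PBS (SD, n = 5 each). Each 4-HDHA library lay below each PBS library, as for 1.63% of all genes. The gap was narrow, with 53.3 CPM in the highest 4-HDHA library and 55.4 CPM in the lowest PBS library. Its edgeR p, the smallest of the complex I list, was 0.0104 before and 0.303 after adjustment. Ndufs8, an iron-sulfur subunit, and Ndufa8 had log2 fold changes of -0.36 and -0.27. In complex III, Cyc1 (cytochrome c1), Uqcrfs1 (the Rieske iron-sulfur protein) and Uqcrc1 (a core protein) had -0.46, -0.39 and -0.37.

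Complex V held the smallest p among these genes. Atp5g1, which encodes the ring subunit c that turns with the proton flow, averaged 66.5 ± 12.1 CPM with 4-HDHA and 98.7 ± 12.2 CPM with PBS (SD, n = 5 each). Every 4-HDHA library lay below every PBS library for Atp5g1, as for 1.63% of all genes. Its log2 fold change of -0.57 (SE 0.14) had an edgeR p of 0.0020 before and 0.291 after adjustment. The catalytic subunit gene Atp5b had -0.35 and the stator gene Atp5pb -0.32. In complex II, which has no mitochondrially encoded subunit, Sdhd, Sdhb and Sdhc had -0.31, -0.20 and -0.19. Complex IV was closest to no difference, with -0.18 for Cox5a, -0.13 for Cox7b and -0.10 for Ndufa4.

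Set side by side in each library, the mean log2 CPM of the 10 mitochondrial genes exceeded that of the nuclear subunit genes by 5.30, 5.38, 5.22, 5.65 and 5.12 in 4-HDHA replicates 1 to 5, against 5.03, 4.85, 4.71, 4.86 and 5.26 in PBS replicates 1 to 5. Of the 4-HDHA libraries 3 lay above every PBS library. The highest value, in 4-HDHA replicate 4, came with the lowest nuclear subunit mean of the 10 libraries (6.23 log2 CPM), and the lowest value, in PBS replicate 3, with the lowest mitochondrial mean (11.0 log2 CPM). This difference was not tested.

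**Figure D5:**
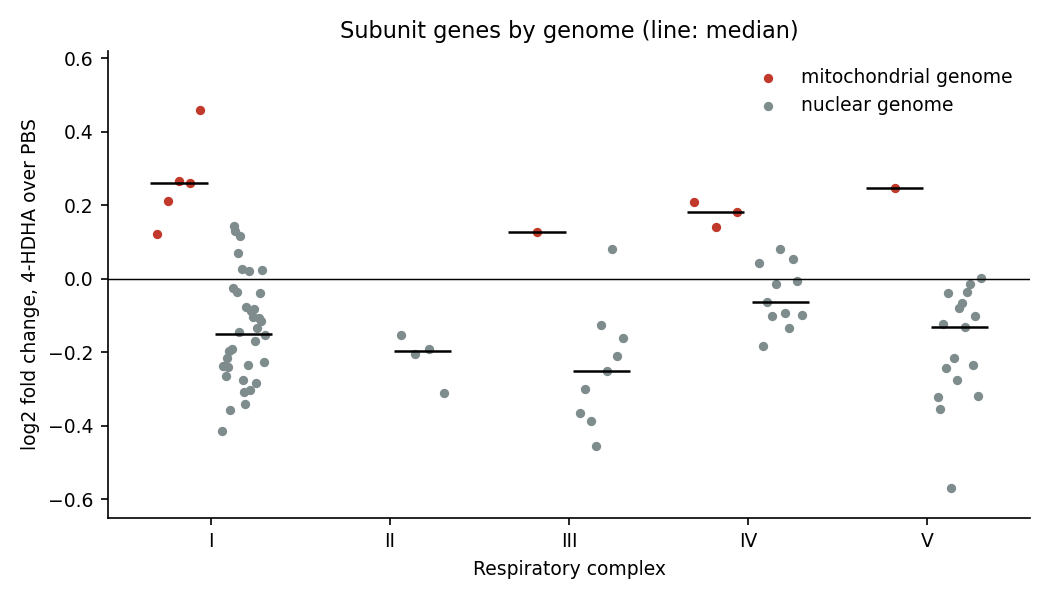
Log2 fold change of 4-HDHA over PBS (y) for subunit genes of each respiratory complex (x), from the mitochondrial genome (10 genes) and from the nuclear genome (77 genes), with lines at the medians. The mitochondrial genes lie between 0.12 and 0.46 and the nuclear genes between -0.57 and 0.14, and 0 of either passed adjustment.

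Genes that copy, transcribe and process the mitochondrial genome mostly had negative fold changes as well, and 0 passed adjustment by edgeR. Among 10 transcription genes, 2 were positive and 8 negative with a median of -0.25. The mitochondrial RNA polymerase gene Polrmt averaged 14.0 ± 3.01 CPM with 4-HDHA and 19.2 ± 6.63 CPM with PBS, the packaging and initiation factor gene Tfam 20.4 ± 4.44 CPM with 4-HDHA and 25.9 ± 8.26 CPM with PBS, and Tfb2m 14.6 ± 4.96 CPM with 4-HDHA and 17.4 ± 4.34 CPM with PBS (SD, n = 5 each). The elongation factor gene Tefm had a log2 fold change of -0.32. Among 10 replication genes, 4 were positive and 6 negative with a median of -0.17. The polymerase gene Polg had -0.16 and the helicase gene Twnk -0.26. The thymidine kinase gene Tk2, which supplies nucleotides for mitochondrial DNA, had a positive fold change. It had 13.4, 15.3, 15.4, 16.5 and 19.6 CPM with 4-HDHA, against 9.01, 11.6, 11.6, 11.6 and 12.4 CPM with PBS. Its groups did not overlap, where 1.16% of all genes were higher without overlap. Tk2 is named because its p was among the 3 smallest of this list. In edgeR's test its log2 fold change of 0.51 (SE 0.14) had a p of 0.0046 before and 0.291 after adjustment. Dguok, the matching deoxyguanosine kinase gene, had 0.23 and Primpol 0.26.

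RNA processing and stability genes had the lowest median of the lists of mitochondrial gene expression, -0.45. Of 20 tested, 19 were negative, 6 were lower at an unadjusted p under 0.05 and 0 passed adjustment. Over all genes 7.45% were lower at that limit. Lrpprc, whose protein stabilises mitochondrial messages, averaged 28.7 ± 10.3 CPM with 4-HDHA and 44.1 ± 15.8 CPM with PBS, while its partner gene Slirp had nearly equal means of 15.5 ± 1.11 CPM with 4-HDHA and 16.2 ± 2.89 CPM with PBS (SD, n = 5 each). The exonuclease gene Pnpt1 had -0.63 as its log2 fold change and the poly(A) polymerase gene Mtpap -0.19. The genes with the smallest p were Elac2, which cuts the 3′ end of transfer RNAs, at -0.64, Tbrg4 at -0.56 and Fastkd3 at -0.61. PBS replicate 3, lowest in the 10 messages, had the highest summed level of this list, 746 CPM beside 397 to 655 CPM in the other 9 libraries. This library also had the highest summed level of the transcription genes, 141 CPM, and of the replication genes, 188 CPM.

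Translation genes had a median of -0.30, with 11 of 12 negative, 5 lower at an unadjusted p under 0.05 and 0 passing adjustment. The elongation factor genes Tufm and Gfm1 had -0.71 and -0.70 and the initiation factor gene Mtif3 -0.45. All 11 chaperone and protease genes were negative with a median of -0.31, 4 of them under an unadjusted 0.05. At that limit 7.45% of all genes were lower, which stands beside both of these lists. The chaperonin genes Hspd1 and Hspe1 had -1.38 and -0.84 and the matrix chaperone gene Hspa9 -0.71. Hspd1 averaged 111 ± 52.5 CPM with 4-HDHA and 290 ± 207 CPM with PBS (SD, n = 5 each), a wide spread within the PBS group. PBS replicate 3 had the highest summed level of the chaperone and protease list, 1775 CPM beside 660 to 1378 CPM in the other libraries. For the translation genes PBS replicate 4 was highest, and for the biogenesis regulators PBS replicate 2. Regulators of mitochondrial biogenesis had a median of -0.12. The coactivator gene Ppargc1a averaged 34.0 ± 10.1 CPM with 4-HDHA and 27.6 ± 10.4 CPM with PBS, its relative Pprc1 had -0.72, and the transcription factor genes Nrf1 and Yy1 had -0.20 and -0.16.

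The genes whose levels ran most like the mean of the 10 were sought among 15451 genes outside the mitochondrial chromosome and its copies, by Pearson correlation of log2 CPM over the 10 libraries, as a description. They were Tox3 (0.986), Cyp2d22 (0.984), Rmdn1 (0.977), Tmem59 (0.970) and Cyp2d37-ps (0.967). PBS replicate 3 was the lowest library for each, and without it the values were 0.944, 0.943, 0.904, 0.862 and 0.847. Cyp2d22, a cytochrome P450 gene, had 57.5, 46.1, 37.4, 40.3 and 27.1 CPM with 4-HDHA, against 28.6, 27.0, 10.3, 32.9 and 43.0 CPM with PBS. Like mt-Co1 and mt-Cytb its CPM was highest in 4-HDHA replicate 1, and its groups overlapped. All 10 libraries in these correlations share their depth and tissue makeup with the genes compared.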

How the data were processed

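RNA was sequenced from 10 colon libraries, 5 with 4-HDHA and 5 with PBS, grouped by their descriptions. Libraries were prepared from RNA captured on oligo(dT) beads, with dUTP marking of the strand and paired-end reading, per the labels' protocols. Build mm10 and the tools edgeR, DESeq2, StringTie 1.3.4d, HISAT2 2.0.4 and cutadapt 1.9 are named in the submitters' processing notes, with no order or settings. The authors deposited whole-number read counts for 55401 genes, not normalized, and FPKM values with gene names and positions.

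Counts were tested over all genes with edgeR 4.0.16 in R 4.3.3, using TMM factors, filterByExpr, the robust quasi-likelihood F test and Benjamini-Hochberg adjustment at 0.05. SE and 95% intervals are those implied by that test, and log2 CPM used a prior count of 2. Copies were sought by aligning the mitochondrial genes to GENCODE M21 transcripts with blastn, at 85% identity or more, and called near-identical at 99% or more over at least 150 bases. Sequences came from the same transcripts. At 50915365 to 66470519 counts a library, counting error is small beside the spread between libraries for the respiratory subunit messages of the mitochondrial genome described. Their lowest count in a library was 20088, for mt-Nd6. Counting error need not be small for transfer RNA genes read at very low levels. One such gene was mt-Tt, at 0.241 ± 0.0235 CPM with 4-HDHA and 0.279 ± 0.0728 CPM with PBS (SD).

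The genes described and all lists were chosen with earlier results of these data known. Named from each pathway list were the 3 tested genes with the smallest p and Tfam, Polrmt, Tfb2m, Lrpprc, Slirp, Ppargc1a, Polg, Twnk, Mtpap and Pnpt1 whatever their values, besides the 5 genes most like the mean of the 10. The procedure was tested on simulated data. Alternatives were DESeq2 1.42.0, limma 3.58.1, other scalings and filters, counts summed with the copies, tissue covariates, a replicate block and each library left out.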

Additional observations from a re-analysis of the deposited data

Results flagged for a closer look

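Among 52 groups of 5 libraries examined, 4 held a library far from the rest of its group, its gap to the nearest other library being more than 0.71 of the range of the group; chance gives such a gap in about 1 in 20 groups. The level of mt-Cytb in PBS replicate 3 was 3498 CPM, against 5538 to 6237 CPM in the other PBS libraries. In 4-HDHA replicate 5 the 10 genes took 4.53% of all counts, against 5.44% to 5.79% in the other 4-HDHA libraries. In 4-HDHA replicate 4, mt-Nd6 made up 1.42% of the counts on the 10 genes, against 1.09% to 1.18% in the rest of its group. In the same library mt-Nd1 made up 6.51% of those counts, against 5.93% to 6.07% in the rest of its group.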

How the results depend on the processing

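Over 23 alternative settings, 226 of 230 fold changes of the 10 genes kept their sign, and none of the 10 passed an adjusted p of 0.05 under any of them; the lowest adjusted p was 0.167, for mt-Nd6 in limma voom with quality weights. The 4 that changed sign did so with the smooth muscle covariate, where mt-Nd1 had -0.047, mt-Nd2 -0.015, mt-Cytb -0.024 and mt-Co2 -0.013. DESeq2 called 201 genes higher and 107 lower with 4-HDHA over all genes, where edgeR called 0, and 0 of the 10 genes; the cause was not tested. With 1 library left out, the median log2 fold change of the 10 genes ranged from 0.0953 (without PBS replicate 3) to 0.289 (without PBS replicate 5), and the difference in their share of all counts from 0.445 to 0.950 percentage points, beside 0.740 with all libraries. Summed with their near-identical copies, the genes had a median of 0.22. Same-numbered libraries did not deviate together over the 500 most variable genes (correlations of -0.104 to -0.0441). This measure gave no sign of pairing by number but cannot exclude it. With the replicate number as a block, 0 genes passed and the median was 0.229.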
